A study of Mus musculus with 2 samples.

Results

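The MHC class I antigen presentation genes were examined in RNA sequencing of Th1 cells from mice labelled Chi3l1 WT and Chi3l1 KO. The members were 31 genes picked by symbol, of 24421 genes in the table of each library. They comprise the light chain B2m, 14 H2 heavy chain genes, the class I-like genes Cd1d1 and Mr1, 7 genes of peptide transport and loading, 5 genes of the immunoproteasome and its activator PA28, the transactivator Nlrc5 and the thiol reductase Ifi30. The WT Th1 library came from Chi3l1+/+ mice and the other library from Chi3l1-/- mice, both on the C57BL/6J background and young adults by the study's methods. In both, naive CD4 T cells were isolated with a kit and stimulated in culture through CD3 and CD28 with antibodies fixed to the plate, in the presence of IL-2, IL-12 and anti-IL-4 for a few days. By the study's methods, the Chi3l1 KO mice are distinct from its mice with a deletion in T cells alone, so the labelled genotype applies to the whole animal. There was 1 library per genotype, so no difference had a replicate check and no test was possible.

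Every nucleated cell shows peptides from its own proteins on class I molecules, where CD8 T cells read them. The proteasome cuts proteins into peptides, the TAP transporter moves them into the endoplasmic reticulum, and a loading complex places them in the groove of a heavy chain paired with beta-2 microglobulin. IFNγ, the main cytokine of Th1 cells, is known to raise transcription of most of these genes through IRF1 and NLRC5, and T cells themselves carry abundant class I on their surface.

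Values are the deposited log2 of a normalized count plus 1, and a log2 fold change is the library labelled Chi3l1 KO minus WT. Summed rebuilt reads were 70638495 in WT and 62958938 in the library labelled Chi3l1 KO. Chil1, the gene symbol of Chi3l1 in the table, had 1 read in WT and 103 reads in the library labelled Chi3l1 KO, which goes against that label. A table with 1 value per gene cannot show which exons these reads covered. The name "library labelled Chi3l1 KO" is therefore kept, and every direction given here rests on that label. Most T cell markers were high in both libraries, with Cd3e at 14.94 and 14.86, Cd4 at 14.32 and 13.94, and the Th1 factor Tbx21 at 13.98 and 13.72. The Th1 chemokine receptor Cxcr3 was low, with 273 reads in WT and 116 in the library labelled Chi3l1 KO, a log2 fold change of -1.23. The ribosomal RNA precursor Rn45s took 2.83% of the table in WT and 1% in the library labelled Chi3l1 KO.

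The H2 genes are near copies of each other, differ between mouse strains, and were counted by the authors with reads that align to several places. A value of a single H2 gene can therefore contain reads of its neighbours. The 3 coding stretches below show how far such copying goes. They were taken from GENCODE M21 transcripts (GRCm38, plus strand), and capitals mark an 88-base stretch that all 3 contain. Each is longer than a read of 100 bases.
H2-Q6 and H2-Q7, 265 bases across the junction of exons 3 and 4, chr17:35425841-35428122 in H2-Q6 and chr17:35440179-35442525 in H2-Q7: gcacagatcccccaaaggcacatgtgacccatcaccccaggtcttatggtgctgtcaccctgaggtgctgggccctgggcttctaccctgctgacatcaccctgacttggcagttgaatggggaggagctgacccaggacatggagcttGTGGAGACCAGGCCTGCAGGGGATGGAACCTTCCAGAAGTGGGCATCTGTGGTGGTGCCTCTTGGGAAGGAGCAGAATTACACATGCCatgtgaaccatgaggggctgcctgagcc
H2-D1 and H2-Q1, 184 bases of exon 4, chr17:35265831-35266014 in H2-D1 and chr17:35323111-35323294 in H2-Q1: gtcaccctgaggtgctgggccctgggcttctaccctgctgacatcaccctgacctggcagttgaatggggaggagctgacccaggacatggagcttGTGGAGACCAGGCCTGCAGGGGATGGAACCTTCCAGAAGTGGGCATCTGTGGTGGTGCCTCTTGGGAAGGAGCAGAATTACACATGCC
H2-Q1 and H2-Q10, 134 bases of exons 4 and 5, chr17:35323207-35323467 in H2-Q1 and chr17:35473226-35473486 in H2-Q10: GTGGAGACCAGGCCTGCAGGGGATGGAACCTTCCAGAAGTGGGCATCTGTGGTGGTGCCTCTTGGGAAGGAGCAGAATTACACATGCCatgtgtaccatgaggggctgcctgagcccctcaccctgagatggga
Exon 4 of a class I gene encodes the membrane-proximal alpha3 domain, which CD8 contacts and which varies little between class I genes. The capital stretch was found in the coding sequence of 5 of the 13 H2 members with one in that annotation, namely H2-D1, H2-Q1, H2-Q6, H2-Q7 and H2-Q10.

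The share of 100-base windows of the longest transcript that occur identically in another gene was 16.4% for H2-Q7, 14.2% for H2-T22, 13.1% for H2-Q1, 11.8% for H2-T10 and 10.8% for H2-Q6. It was 7.28% for H2-T23, 4.64% for H2-D1, 2.66% for H2-Q4, 2.06% for H2-Q10 and 0% for H2-K1, H2-Q2, H2-T24 and H2-M3. These shares count exact matches alone, so a read placed with a mismatch can still be shared. H2-L, H2-Q9 and H2-T9 are listed in the libraries but had no GENCODE M21 transcript to compare. Windows shared with them are therefore missing from the shares. H2-Q9 had 23225 reads in WT and 22113 in the library labelled Chi3l1 KO. H2-Q8 had no transcript in that annotation and no share. Its values were identical to those of H2-Q6 in both libraries, at 12.39 in WT and 12.25 in the library labelled Chi3l1 KO. H2-L, a gene that the C57BL/6 haplotype lacks, was listed at 15.99 and 15.76, and stood in a nearly constant ratio to H2-D1 of 1.17 in WT and 1.15 in the other library.

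Across the 31 genes, the deposited log2 values ranged from Cd1d1 at 5.84 in WT and 5.48 in the library labelled Chi3l1 KO to B2m at 17.37 and 17.18. A gene entered the counts below when its mean log2 value over both libraries was at least 6, which is a normalized count of 63, and Cd1d1 was the only member below this floor. Of the 30 members above it, 11 were higher in the library labelled Chi3l1 KO, 18 were lower and 1 was equal, while 50.6% of the 11210 genes above the floor were lower. A difference of at least 1.5-fold was reached upward by 1 member, H2-Q10, and by 6.55% of all genes. Downward it was reached by 2 members, H2-Q1 and H2-Q2, and by 8.4% of all genes. At 2-fold, 1 member was higher against 1.38% of all genes and 0 members were lower against 1.86%. All 3 genes past 1.5-fold were Q region genes. H2-Q1 and H2-Q10 hold the stretch printed above, and H2-Q1 shares 106 of its 100-base windows with a transcript of H2-Q2 other than the one its own share of 0% was computed on.

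**Figure D1:**
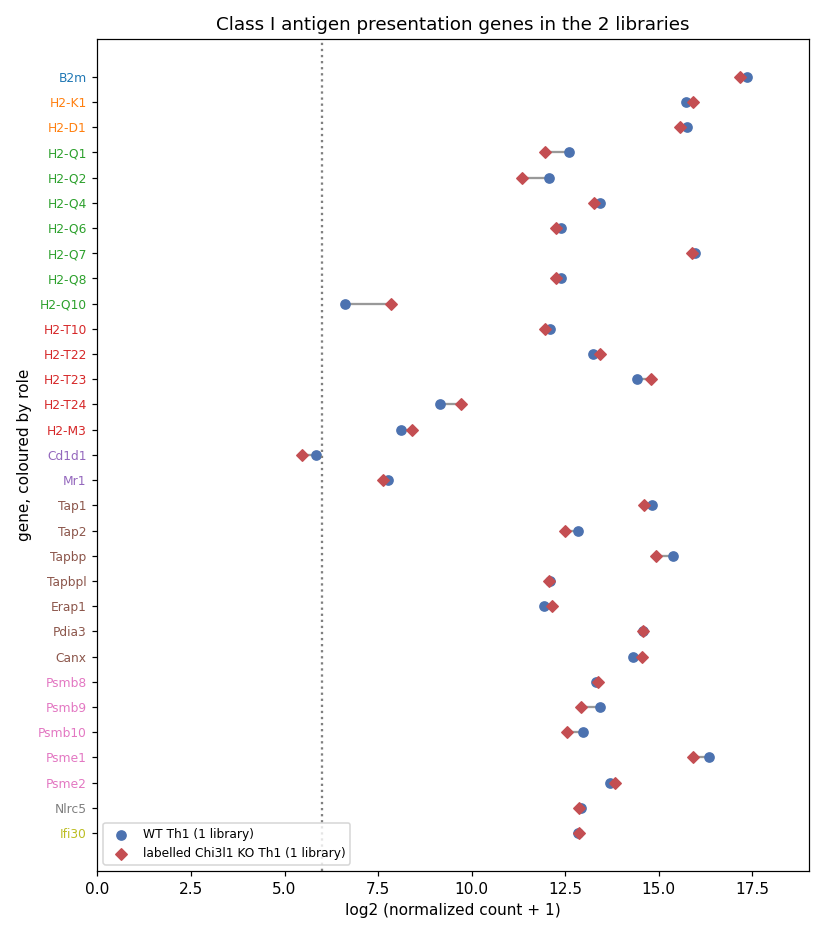
Log2 (normalized count + 1) of the 31 genes (vertical axis, coloured by role) in the WT Th1 library (blue circles) and in the library labelled Chi3l1 KO (red diamonds), with the floor of 6 as a dotted line. Most pairs of points nearly overlap, and the longest connecting line belongs to H2-Q10, at 6.63 and 7.86.

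The median log2 fold change of the members was -0.10, with quartiles of -0.22 and 0.17, beside a median of -0.01 and quartiles of -0.27 and 0.25 over all genes above the floor. The median size of a difference, whatever its sign, was 0.20 for the members and 0.26 for all genes. The split into higher and lower members depended on the scaling. When the libraries were set to equal totals without Rn45s, which moved the median of all genes to 0.14, 17 members were higher and 13 lower. Scaling to Actb, which moved that median to 0.11, gave 15 and 15, and quantile normalization also gave 15 and 15. Together the 31 genes made up 0.9995% of the table in WT and 1.03% in the library labelled Chi3l1 KO.

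**Figure D2:**
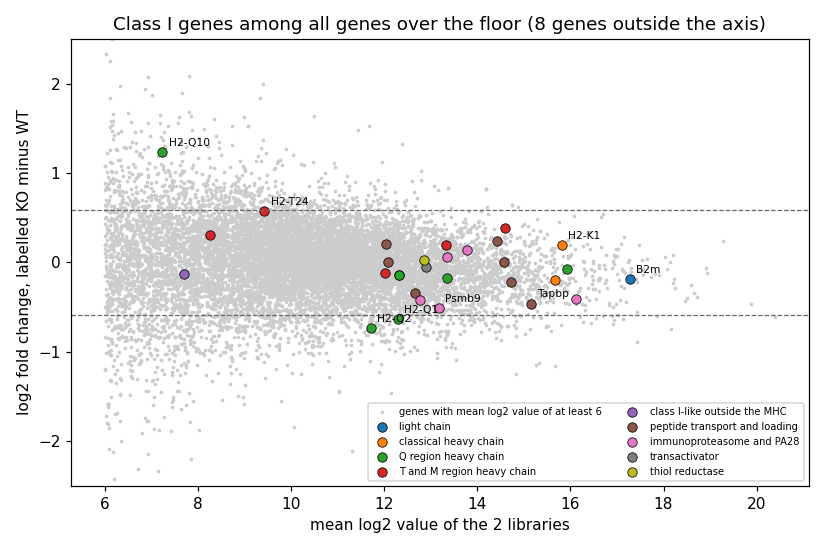
Log2 fold change (library labelled Chi3l1 KO minus WT) against the mean log2 value of both libraries for the 11210 genes above the floor (grey) and the 30 members above it (coloured by role), with dashed lines at 1.5-fold. Only H2-Q10, H2-Q1 and H2-Q2 lie outside the dashed lines, H2-T24 lies just inside, and 8 genes fall outside the axis.

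Fold changes over all genes followed base composition. Spearman's rho between the GC content of the longest transcript and the log2 fold change was -0.535 across 8774 genes with a mean log2 value of at least 8, and genes are not independent replicates. Over 20 bins of GC content, the bin median was 0.25 at 39.3% GC, the lowest bin, and -0.46 at 61.2% GC, the highest. The members had a median GC content of 53.9%. With this trend subtracted, 16 of the 29 members with a transcript and above the floor were higher and 13 lower, at a median of 0.02. The plot of fold changes by role shows the subtracted value of each member with a transcript, and some are given below.

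**Figure D3:**
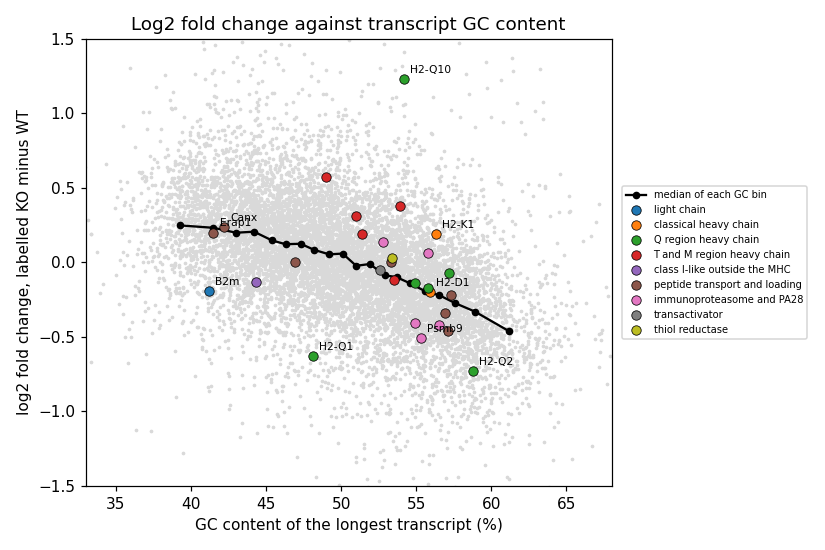
Log2 fold change (library labelled Chi3l1 KO minus WT) against GC content of the longest transcript in percent, for genes above the floor (grey), the members (coloured by role) and the median of each of 20 GC bins (black line). The black line falls from 0.25 to -0.46, H2-K1 lies above it, B2m, H2-Q1 and H2-Q2 lie below it, and 108 genes fall outside the axes.

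B2m, the light chain of every class I molecule (chr2:122147686-122153083), was the most abundant member per kb of transcript, at 196284 normalized counts in WT and 172422 in the library labelled Chi3l1 KO. It had 174205 and 153264 reads, a log2 fold change of -0.19 with a 95% counting interval of -0.20 to -0.18. These exact binomial (Clopper-Pearson) intervals cover counting error only, and treat reads as independent molecules, which reads counted on several genes are not. B2m has the lowest GC content among the members, 41.2%, and its log2 fold change became -0.42 when the GC trend was subtracted. In bulk samples, fewer cells of a type and less RNA per cell cannot be told apart.

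The classical heavy chains H2-K1 and H2-D1 present peptides to CD8 T cells. H2-K1 (chr17:33996017-34000347) read 15.72 in WT and 15.91 in the library labelled Chi3l1 KO, a log2 fold change of 0.19 (interval 0.17 to 0.21). H2-D1 (chr17:35262730-35267499) read 15.77 and 15.56, a log2 fold change of -0.20 (interval -0.22 to -0.19). Both lie well inside the 1.5-fold lines and take opposite signs as deposited. With the GC trend subtracted H2-K1 was at 0.40 and H2-D1 at -0.00, so the lower value of H2-D1 was not seen under that setting. Within each library, which needs no scaling between libraries, the ratio of H2-K1 to H2-D1 normalized counts was 0.967 in WT and 1.27 in the library labelled Chi3l1 KO. Their GC contents are close, at 56.3% and 55.9%, and the log2 change of the ratio was 0.39 as deposited and 0.40 with the GC trend subtracted. Per kb of transcript, H2-K1 was at 33292 and 37952 normalized counts and H2-D1 at 26509 and 23030. H2-K2, a transcribed pseudogene beside H2-K1 (chr17:33974659-33978827) that was singled out after its values were seen, went from 5117 to 10423 reads, a log2 fold change of 1.02. Reads that H2-K1 and H2-K2 may share were not separated here.

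The Q region genes encode class I molecules that vary less between mice, among them the Qa-2 antigens of H2-Q7 and its relatives. Of the 7, H2-Q7 dominated, at 66286 reads in WT and 63025 in the library labelled Chi3l1 KO and a log2 fold change of -0.07. Per kb of transcript it stood at 42174 normalized counts in WT and 40037 in the other library, above both classical heavy chains. H2-Q7 also had the largest share of windows found in other genes among the H2 members, 16.4%, beside 4.64% for H2-D1 and 0% for H2-K1. Its level can therefore include reads of its neighbours. H2-Q4 read 13.43 and 13.26, and H2-Q6 and H2-Q8 shared the values given above. None of these 4 reached 1.5-fold.

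H2-Q1 (chr17:35320405-35325099) had 6406 reads in WT and 4148 in the library labelled Chi3l1 KO, 1.55-fold lower, with a log2 fold change of -0.63 (interval -0.69 to -0.57). H2-Q2 (chr17:35342242-35346762) had 4464 and 2695 reads, 1.66-fold lower, with a log2 fold change of -0.73 (interval -0.80 to -0.66). Of all genes above the floor, 7.13% lay lower than H2-Q1 and 4.75% lower than H2-Q2. Each of these calls turned on the processing. H2-Q1 was inside 1.5-fold at -0.49 with equal totals, -0.51 scaled to Actb and -0.57 after quantile normalization, and went to -0.72 with the GC trend subtracted. H2-Q2, which has the highest GC content of the members at 58.8%, was at -0.40 with the GC trend subtracted.

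H2-Q10, whose product is known mainly as a secreted class I molecule of the liver, was the only member past 1.5-fold upward. It had 101 reads in WT and 238 in the library labelled Chi3l1 KO, 2.34-fold higher, with a log2 fold change of 1.23 (interval 0.89 to 1.58). The value was 1.35 with the GC trend subtracted. Its level stayed small, at 0.0403% of the summed H2 members in WT and 0.0954% in the library labelled Chi3l1 KO. H2-D1, which holds the same capital stretch, had 57505 reads in WT beside the 101 of H2-Q10. H2-Q1, which shares the longer stretch printed above, was lower where H2-Q10 was higher. The part of shared reads in these values was not tested.

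The T and M region genes encode nonclassical molecules. H2-T23 encodes Qa-1, the ligand of the NKG2A receptor of NK and CD8 T cells, and read 14.41 in WT and 14.78 in the library labelled Chi3l1 KO, a log2 fold change of 0.38 (interval 0.35 to 0.40). H2-T24 had 583 and 867 reads, a log2 fold change of 0.57 (interval 0.42 to 0.72), and was the member closest to 1.5-fold without reaching it. H2-M3, which presents formylated peptides, had 282 and 350 reads, a log2 fold change of 0.31 (interval 0.08 to 0.54). All of these 3 values are positive and below 1.5-fold as deposited. H2-T24 was past it at 0.71 with equal totals and 0.69 scaled to Actb. H2-T22 and H2-T10 are a closely related pair whose products are known to be bound by some gamma-delta T cells. GENCODE M21 types H2-T10 as a polymorphic pseudogene. H2-T22 read 13.24 and 13.43 and H2-T10 read 12.09 and 11.96. H2-T9, a further copy, stood at 1.03 times H2-T22 in both libraries, so these values cannot be assigned to single genes. The 5 genes had a median log2 fold change of 0.31, and of 0.33 with the GC trend subtracted, beside -0.14 and 0.02 for the 7 Q region genes. The value of 0.02 leaves out H2-Q8, which had no transcript. The value of -0.14 counts the identical values of H2-Q6 and H2-Q8 separately.

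Summed over the 14 H2 members, the normalized count was 242864 in WT and 241603 in the library labelled Chi3l1 KO, a log2 fold change of -0.01. A read counted on several copies enters this sum more than once, and listed genes outside the members, such as H2-L and H2-K2, are left out. How far this sum depends on the handling of shared reads was not tested. Within it, H2-K1 went from 22.2% to 25.4%, H2-D1 from 22.9% to 20.04%, H2-Q7 from 26.5% to 25.2% and H2-T23 from 8.96% to 11.7%. As deposited, the summed level was nearly the same in both libraries while its makeup differed. The summed level depends on the scaling, unlike the shares within a library. Equal totals without Rn45s scale the library labelled Chi3l1 KO up by a log2 of 0.14, and scaling to Actb by 0.12.

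Mr1 and Cd1d1 lie outside the MHC and present small metabolites and lipids rather than peptides. Mr1 had 223 reads in WT and 204 in the library labelled Chi3l1 KO, and its log2 fold change of -0.13 had a counting interval of -0.41 to 0.15. Cd1d1 had 58 and 45 reads, a log2 fold change of -0.36 (interval -0.96 to 0.22). A difference was not detectable for either gene at this depth. Cd1d1 also shares 14.6% of its 100-base windows, with its copy Cd1d2 as the main partner.

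**Figure D4:**
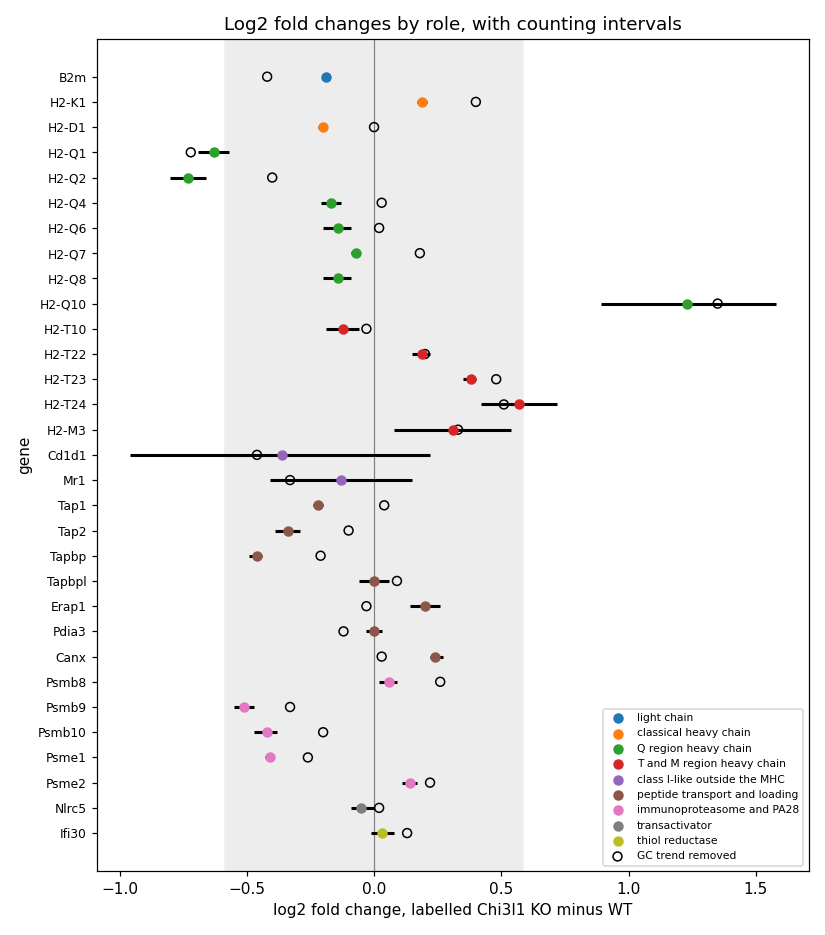
Log2 fold change (library labelled Chi3l1 KO minus WT, horizontal axis) of the 31 genes by role, with 95% counting intervals as bars and the value after subtracting the GC trend as open circles, and the range inside 1.5-fold in grey. The filled points of H2-Q1, H2-Q2 and H2-Q10 lie outside the grey range, and the 5 T and M region genes lie between -0.12 and 0.57.

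The genes of peptide transport and loading did not reach 1.5-fold. Tapbp, or tapasin, which bridges the heavy chain to TAP, had the largest difference of the 7, at 15.39 in WT and 14.93 in the library labelled Chi3l1 KO and a log2 fold change of -0.46 (interval -0.49 to -0.44). Of all genes above the floor, 12.8% lay lower. The transporter subunit Tap1 read 14.83 and 14.61 (log2 fold change -0.22), and its partner Tap2 read 12.84 and 12.50 (log2 fold change -0.34). These 3 genes are rich in GC, and their values became -0.21, 0.04 and -0.10 with the GC trend subtracted. The ratio of Tap1 to Tap2 was 3.96 in WT and 4.30 in the library labelled Chi3l1 KO.

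Tapbpl, a second peptide editor, had 4470 reads in WT and 4471 in the library labelled Chi3l1 KO. Pdia3, the disulfide isomerase bound to tapasin, read 14.57 in both libraries. Canx, or calnexin, which holds newly made heavy chains, read 14.30 and 14.55, a log2 fold change of 0.24. Erap1, which trims peptides in the endoplasmic reticulum, read 11.94 and 12.14, a log2 fold change of 0.20. Canx and Erap1 went to 0.03 and -0.03 with the GC trend subtracted. A wider list held 15 genes of loading, trimming and translocation found in the table. In it 7 were higher, 8 were lower and 0 reached 1.5-fold, beside 6.55% of all genes upward and 8.4% downward. The median of this list was -0.05. The chaperone Calr, or calreticulin, read 14.32 and 14.48 in this list.

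In the immunoproteasome, 3 inducible subunits replace the catalytic subunits of the standard particle. Psmb9 (chr17:34181987-34187764) had 11341 reads in WT and 7982 in the library labelled Chi3l1 KO, 1.42-fold lower, with a log2 fold change of -0.51 (interval -0.55 to -0.47). Psmb10 read 12.98 and 12.56, a log2 fold change of -0.42 (interval -0.47 to -0.38). Psmb8 read 13.32 and 13.38, a log2 fold change of 0.06 (interval 0.02 to 0.09). The inducible subunits therefore did not share a sign, and none reached 1.5-fold. With the GC trend subtracted the values were -0.33, -0.20 and 0.26.

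Each inducible subunit was then set beside the subunit it replaces, as a ratio within a library of normalized counts per kb. Psmb9 to Psmb6 was 9.92 in WT and 5.70 in the library labelled Chi3l1 KO. The ratio in the latter library was 0.575 times that in WT, a log2 change of -0.80 as deposited and -0.82 with the GC trend subtracted. Psmb6 itself had 675 and 826 reads, a log2 fold change of 0.29, so both terms moved the ratio the same way. Psmb10 to Psmb7 was 3.64 and 2.78 (log2 change -0.39, and -0.10 with the GC trend subtracted), and Psmb8 to Psmb5 was 5.15 and 4.64 (log2 change -0.15, and -0.17 with the GC trend subtracted). In each of these libraries every inducible subunit was more abundant per kb than its counterpart.

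**Figure D5:**
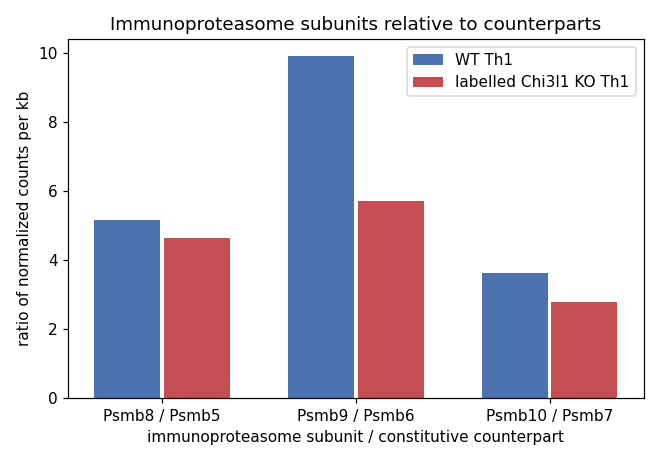
Ratio of normalized counts per kb of each inducible proteasome subunit to the constitutive subunit it replaces, in the WT Th1 library (blue bars) and the library labelled Chi3l1 KO (red bars), 1 library each. All ratios are above 1, and the ratio of Psmb9 to Psmb6 goes from 9.92 to 5.70.

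Psme1 and Psme2 encode the alpha and beta chains of PA28, a ring that caps the proteasome and opens it for peptides. Psme1 read 16.33 in WT and 15.92 in the library labelled Chi3l1 KO, a log2 fold change of -0.41 (interval -0.43 to -0.40). Psme2 read 13.70 and 13.84, a log2 fold change of 0.14 (interval 0.11 to 0.17). The chains of this heteromer took opposite signs, and the ratio of Psme1 to Psme2 per kb was 5.36 in WT and 3.66 in the library labelled Chi3l1 KO. Psme2 shares 44.5% of its 100-base windows with other genes, mainly its near copy Psme2b, which was listed with 87 and 78 reads.

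The standard proteasome was read from a list of its 14 core subunit genes. Of these, 13 were higher in the library labelled Chi3l1 KO, 1 was lower and 0 reached 1.5-fold, with a median log2 fold change of 0.30 and a range of -0.04 to 0.52. The median was 0.24 with the GC trend subtracted, and 13 of 14 stayed higher. As deposited, 5536 of all 11210 genes above the floor were higher, 6.55% reached 1.5-fold upward and 8.4% downward. Over 19 genes of the regulatory particle and other activators, 12 were higher, 7 were lower and 0 reached 1.5-fold, with a median of 0.20. Psme3, the nuclear PA28 chain, had a log2 fold change of -0.10. The 5 inducible and PA28 genes had a median of -0.41, and of -0.20 with the GC trend subtracted.

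Nlrc5 (chr8:94434356-94527272), the transactivator of class I genes, had 7997 reads in WT and 7747 in the library labelled Chi3l1 KO, a log2 fold change of -0.05 (interval -0.09 to -0.00). The DNA-binding partners it works with were also close, with log2 fold changes of -0.08 for Rfx5, -0.05 for Rfxank and 0.17 for Rfxap. Ciita, the related transactivator of class II genes, had 546 and 294 reads, a log2 fold change of -0.89. Ifi30, a thiol reductase of lysosomes that opens disulfide bonds of antigens, read 12.84 and 12.87, a log2 fold change of 0.03.

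Among 22 genes of class I transcription and interferon signalling above the floor, 9 were higher and 13 lower, with a median of -0.07. Past 1.5-fold were 1 higher gene, Nfyb, a subunit of the factor that binds CCAAT boxes, at 0.85, and 3 lower genes, Ciita, the IFNγ receptor chain Ifngr2 at -0.85 and the signal inhibitor Socs1 at -0.87. With the GC trend subtracted, Socs1 was at -0.54, inside 1.5-fold. As deposited, 6.55% of all genes above the floor were past 1.5-fold upward and 8.4% downward. Irf1 read 14.74 in WT and 14.60 in the library labelled Chi3l1 KO. Ifng itself had 3483 and 8728 reads, a log2 fold change of 1.32. The RNA of this cytokine was thus 2.5-fold higher in the library labelled Chi3l1 KO, and its protein was not measured here.

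Class I promoters are known for elements bound by interferon regulatory factors, NF-kappaB and the complex that NLRC5 joins. The promoter of B2m is shown for its matches to such elements, with that of H2-K1, the classical heavy chain with the opposite sign as deposited. Both cover 250 bases before the start of the gene in RefSeq (GRCm38.p6), and capitals mark matches to the letters searched.
B2m promoter, plus strand, chr2:122147437-122147686: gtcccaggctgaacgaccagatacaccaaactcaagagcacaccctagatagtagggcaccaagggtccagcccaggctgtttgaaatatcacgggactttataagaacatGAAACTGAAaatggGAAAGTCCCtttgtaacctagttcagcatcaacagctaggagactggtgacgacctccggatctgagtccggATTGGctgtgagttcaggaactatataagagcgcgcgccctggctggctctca
H2-K1 promoter, minus strand, chr17:34000348-34000597: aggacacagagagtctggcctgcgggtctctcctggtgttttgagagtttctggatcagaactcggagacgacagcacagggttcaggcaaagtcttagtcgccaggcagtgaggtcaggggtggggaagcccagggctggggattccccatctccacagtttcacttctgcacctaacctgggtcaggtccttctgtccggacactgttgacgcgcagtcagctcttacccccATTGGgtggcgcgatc
B2m held a match to the core of the interferon-stimulated response element (GAAANNGAA) at -139, an NF-kappaB match (GGGANTTTC, on the minus strand) at -125 and a CCAAT box (read as ATTGG) at -53. In H2-K1 the CCAAT box was the only match to the letters searched. The search used a single form of each element, so other forms in this window were not counted. Whether H2-K1 lacks such elements was not tested.

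Of the 31 members, 23 had a promoter in the table, searched on both strands from 250 bases before to 50 bases after the start. The shares count the exact letters searched, and other forms of an element were not counted. The interferon core was in 5 (21.7%), B2m, H2-T22, H2-T23, Erap1 and Psme1, beside 9.76% of 27025 genes. CCAAT was in 15 (65.2%) beside 41.1%, and the motif TTCNNNGAA was in 2 (8.70%), H2-M3 and Psmb8, beside 9.55%. The CCAAT matches of Tap1 and Psmb9 are the same bases between the starts of these genes, counted for each. Most of the 15 are H2 genes, which are near copies, so these promoters are not independent. The NF-kappaB letters were in 1 (4.35%) beside 1.29%, and AGCAACAG of the X1 box was in 0 beside 2.61%. The 5 genes with the interferon core had log2 fold changes of -0.19, 0.19, 0.38, 0.20 and -0.41 in the order given, so they did not move together. No promoter was held for Cd1d1, Nlrc5, H2-Q1, H2-T24, H2-Q8, Tap2, Tapbpl and H2-T10.

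Markers of other cells that could sit in the cultures differed between the libraries. All 5 B cell markers were higher in the library labelled Chi3l1 KO, 4 of them past 1.5-fold, and their summed normalized count was 938.9 in WT and 1731 in the other library. Of the 9 class II genes, 6 were higher and 3 lower, and the 3 past 1.5-fold were all higher, H2-Aa at 0.75, H2-Eb1 at 0.94 and H2-DMb1 at 0.76. Among all genes above the floor, 6.55% were past 1.5-fold upward. The 3 lower class II genes were Cd74 at -0.02, H2-DMa at -0.33 and H2-Oa at -0.27. Summed over the 9 class II genes, the normalized count was 23470 in WT and 23940 in the other library. The summed count of 6 macrophage markers was 528.7 and 488.1 with Adgre1 at 0 in both libraries. In it Csf1r had 97 and 174 reads, a log2 fold change of 0.83, and Cd68 had a log2 fold change of -0.43. Below the floor, Mrc1 had 0 and 29 reads, Lyz2 34 and 2, and Cd14 12 and 0. The summed count of 6 dendritic cell markers was 73.6 and 121.9 with Clec9a and Siglech at 0 in both, and that of 7 neutrophil markers was 81.2 and 4.79. Of the dendritic cell markers, 3 were higher and 1 lower, Itgax, at 44 and 5 reads. The sum over 3 NK cell markers was 27.1 and 52.2, with 2 higher and 1 lower, Klrb1c, at 17 and 9 reads. No dendritic cell, neutrophil or NK cell marker reached the floor. Over 2 CD8 genes the sum was 812.1 and 806.9, with Cd8a at 288 and 438 reads and Cd8b1 at 550 and 396. Since most cells express class I genes, the part of these other cells in the class I values was not tested.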

How the data were processed

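RNA of Th1 cells was measured in 1 WT library and 1 library labelled Chi3l1 KO. Per the labels and the study's methods, the authors made libraries from polyadenylated RNA with the SENSE kit, sequenced both ends, mapped reads to mm10 with TopHat and used edgeR on counts that include multiple as well as unique alignments, with a global normalization. The annotation was not given in the sources used here. The unit of the deposited values was inferred to be log2 (normalized count + 1), since low values fall in even steps. With 1 read worth 0.969 in WT and 0.968 in the other library, 99.7% and 99.9% of low values lay within 0.1 of a whole read, and reads were rebuilt from these steps. Because 1 read is worth slightly less at the lowest counts, rebuilt reads are approximate, and reads on several genes count more than once. Depth was 70638495 and 62958938 rebuilt reads.

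Fold changes are differences of the deposited log2 values, with no test, no added pseudocount and a floor of 6 on the mean log2 value. GC content and length came from the longest GENCODE M21 transcript (GRCm38), found for 30 members and 96.2% of genes above the floor. The members and the lists were chosen with earlier results of these data known. Named genes are the 31 members, Chil1, Ifng and Actb, fixed pathway genes, and genes of the fixed lists past 1.5-fold (at most 5 per list). H2-L, H2-Q9, H2-T9 and Psme2b were named for their sequence, and H2-K2 after its values were seen. The lower class II genes and some markers below the floor were named to show both directions. Hm13 and Trac were not found under those symbols in the table. Protein sequences were not used here, and a few genes under this rule are not reported here. Alternatives were a pseudocount of 0.1, 4 scalings, removal of the GC trend and floors of 1 and 8. A further setting left out all H2 members but H2-K1, H2-D1 and H2-M3. The scripts were tested on simulated data. Tools were scipy 1.17.1, pandas 2.3.3, numpy 2.4.6 and matplotlib 3.10.9 under Python 3.11.15.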

Additional observations from a re-analysis of the deposited data

How the results depend on the processing

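As deposited, 1 member was past 1.5-fold upward, 2 downward, and the median log2 fold change was -0.10. The same quantities over all genes were 6.55%, 8.4% and -0.01. With equal totals without Rn45s the members were at 2, 1 and 0.04, beside 12.1%, 4.84% and 0.14 over all genes. Scaled to Actb they were at 2, 1 and 0.02, beside 10.6%, 5.41% and 0.11. With quantile normalization 1 member was past 1.5-fold downward, beside 7.93% of all genes, and the median was -0.00, beside 0.02. With the GC trend removed these were 1 and 0.02, beside 5.38% and 0.00. With a floor of 8, 0 members were past 1.5-fold or 2-fold upward, beside 4.5% and 0.605% of all genes, since H2-Q10 lies below that floor. Another setting left out all H2 members but H2-K1, H2-D1 and H2-M3, a choice that did not follow the window shares. H2-D1, at 4.64%, was kept, while H2-Q2 and H2-T24, at 0%, were left out. This setting left 0 members past 1.5-fold upward, 0 downward and 0 past 2-fold upward, beside 6.55%, 8.4% and 1.38% of all genes. All 3 genes past 1.5-fold are among those left out, and the median was -0.05. A pseudocount of 0.1, median-ratio scaling and a floor of 1 left the member counts as deposited and moved their median by less than 0.05. With the floor of 1, 12.4% of all genes were past 1.5-fold upward and 15.1% downward. The sign of single members turned for 5 with equal totals, 3 with Actb, 3 with quantile normalization, 1 with median-ratio scaling, 7 of 30 with the GC trend removed and 0 with the pseudocount. No paired analysis was possible because each genotype has 1 library and the labels carry no replicate numbers, and no library could be left out. Depth limits Cd1d1, Mr1 and H2-Q10 most.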
